A study of Mus musculus with 12 samples.

Results

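Mitosis and G2/M genes are the genes whose products carry a cell through late interphase, chromosome segregation and division. A list of 48 such genes, picked by gene symbol for their known roles (cyclins, mitotic kinases, kinetochore, checkpoint, kinesins, spindle, cytokinesis), was read in RNA sequencing of mouse naive CD4+ T cells that anti-CD3 and anti-CD28 antibodies had activated in vitro. The list was chosen with earlier results of these data known, which limits the comparisons of its shares with those of all genes. All 48 were among the 32699 gene symbols of the count file, and all 48 passed the filter on low counts that left 13196 genes for testing. The cells lacked Keap1 (Keap1-KO, KKO) or were wild type (WT), and were harvested 48 h or 24 h after activation. The 4 groups were KKO at 48 h, WT at 48 h, KKO at 24 h and WT at 24 h, with 3 libraries each. All 4 groups shared the cell type and both antibodies. The labels give neither the exons removed nor the way Keap1 was deleted, and they name no strain, age or sex. Whether the 3 libraries per group stem from separate mice or cultures is not stated, and p-values measure the spread between these libraries. Each group held libraries with Xist and libraries with Y-linked transcripts, so the cells of a group came from more than 1 animal, and that spread includes differences between animals.

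Keap1 is the adaptor through which a cullin ubiquitin ligase marks the transcription factor NRF2 for destruction. A naive T cell is resting and enters the cell cycle only after its receptor is engaged. Mitotic genes are transcribed late in each cycle: the DREAM complex holds them silent in resting and early cells, and B-MYB with MuvB and then FOXM1 switch them on in G2. Many of their promoters carry CCAAT boxes, bound by NF-Y, and a cell cycle homology region (CHR), bound by MuvB. Some of the proteins are destroyed in mitosis through the anaphase-promoting complex (APC/C), and mRNAs of mitotic genes are widely used as marks of cells in G2 and mitosis. In bulk RNA, fewer cells in G2 or mitosis and less mRNA per such cell cannot be told apart.

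Library totals ran from 17.8 to 32.6 M (mega) expected counts, with 17.8 to 22.4 M at 48 h and 23.7 to 32.6 M at 24 h. Keap1 itself was at 22.5, 20.7 and 20.2 CPM (counts per M of scaled library total) in KKO at 48 h, against 124, 132 and 122 CPM in WT at 48 h. At 24 h Keap1 was at 16.5, 15.7 and 17.5 CPM in KKO, against 106, 109 and 106 CPM in WT. Every KKO library was thus low in Keap1 and no library went against its genotype label. Defining T cell genes were present throughout, with Cd3e, Cd3d, Cd3g, Cd4 and Trac together at 938 to 1031 CPM in KKO and 986 to 1019 CPM in WT at 48 h, and at 945 to 968 CPM in KKO and 1034 to 1121 CPM in WT at 24 h. Both Xist and Y-linked transcripts were present in the third KKO library at 48 h and the first KKO library at 24 h, while each other library held almost solely 1 of these kinds. Counts of called genes are given with and without these 2 libraries for the 48 genes and, in part of the comparisons, for further lists. Counts of genes grouped by role rest on all 12 libraries unless stated, as do values of single genes.

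The summed level of the 48 genes was lower in KKO than in WT at 48 h and higher in KKO than in WT at 24 h. Summed over the list, KKO libraries at 48 h held 4749, 5642 and 5225 CPM, against 6374, 5890 and 5693 CPM in WT libraries. KKO libraries at 24 h held 4429.6, 4219.6 and 4775 CPM, against 3577, 3555 and 3717 CPM in WT libraries. The sums averaged 5205 ± 447 CPM in KKO and 5986 ± 351 CPM in WT at 48 h, and 4475 ± 281 CPM in KKO and 3616 ± 87.6 CPM in WT at 24 h (SD, n = 3 each). All KKO libraries were thus below all WT libraries at 48 h and above all of them at 24 h. The DNA topoisomerase gene Top2a and the proliferation marker gene Mki67 made up 22.2 to 32.1% of each sum, and without them the sums were 3696 to 4362 CPM in KKO and 4421 to 4799 CPM in WT at 48 h, and 2929 to 3326 CPM in KKO and 2428 to 2646 CPM in WT at 24 h. The order of the groups was the same without these 2 genes. The 48 genes lie on 17 chromosomes. In GRCm38, Ube2c lies at chr2:164769898-164778822, Nusap1 at chr2:119618298-119651244, Kif15 at chr9:122951046-123018733, Espl1 at chr15:102296266-102324357 and Birc5 at chr11:117849251-117855743 (GENCODE M21).

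**Figure D1:**
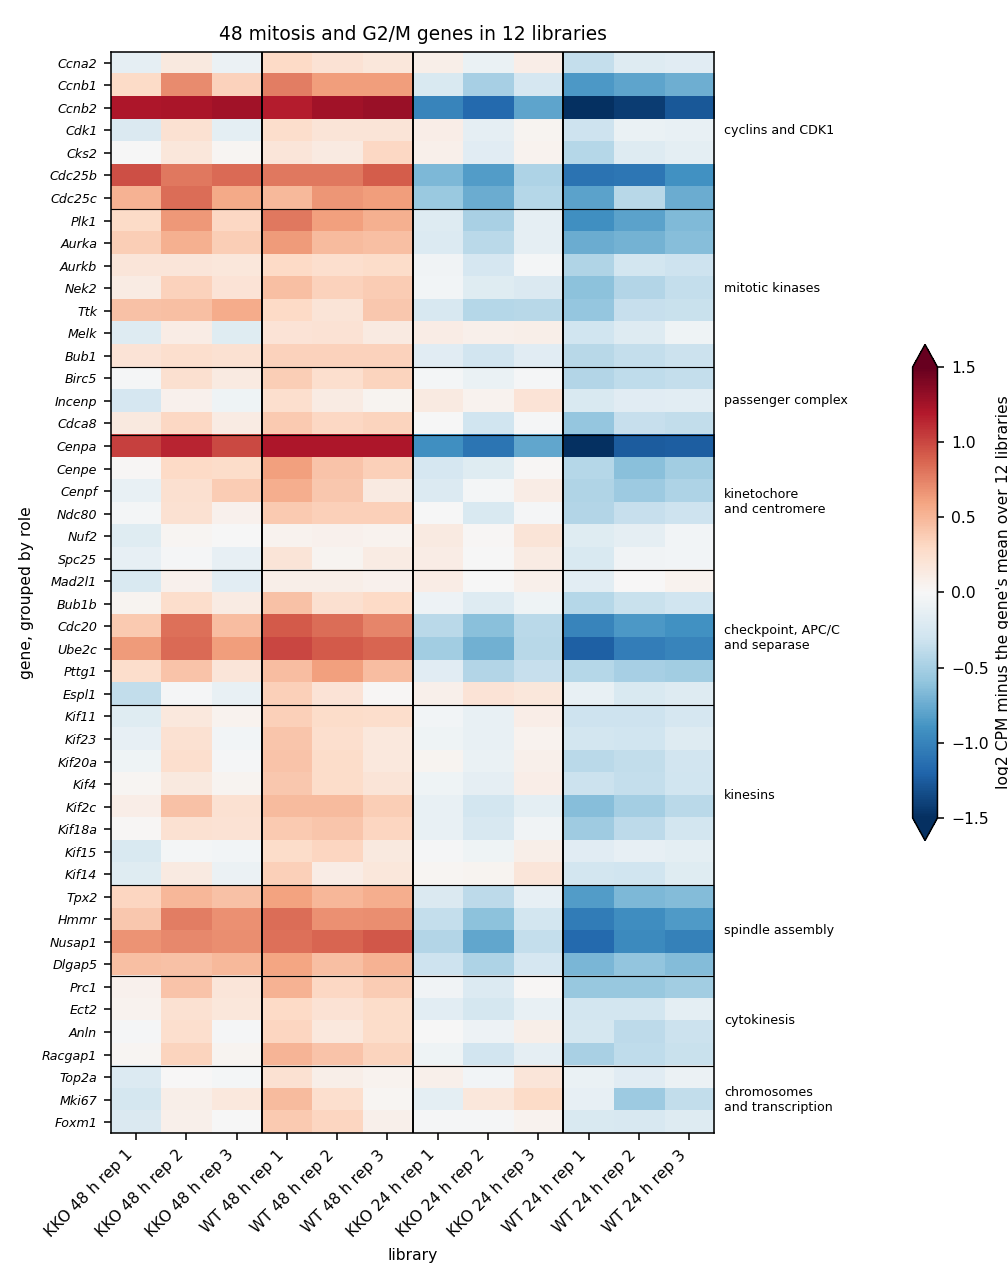
Level of each of the 48 genes (rows, grouped by role) in each of the 12 libraries (columns), as log2 CPM minus the gene's own mean over the 12 libraries. Colours are cut at 1.5 on either side. Summed over the rows, the KKO libraries (4749 to 5642 CPM at 48 h and 4219.6 to 4775 CPM at 24 h) lie between the WT libraries at 48 h (5693 to 6374 CPM) and those at 24 h (3555 to 3717 CPM).

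At 48 h, 12 of the 48 genes were lower in KKO than in WT and 0 were higher by edgeR's quasi-likelihood test, with Benjamini-Hochberg adjustment over the 13196 genes and a threshold of 0.05. That is 25.0% of the list, and 11.9% of all tested genes were called lower and 12.4% higher. The 12 were Ccna2, Melk, Birc5, Cenpe, Ndc80, Espl1, Kif11, Kif23, Kif4, Kif15, Racgap1 and Foxm1. The median log2 fold change was -0.20 over the list and -0.004 over all tested genes. Log2 fold changes lay below 0 for 45 of the 48 genes (50.6% of all genes) and ran from -0.36 to 0.18. In 23 genes all KKO libraries lay below all WT libraries, a share of 47.9% where all tested genes had 16.2%. The count of 0 higher genes stands beside 1 gene higher at an unadjusted p under 0.05, and DESeq2 and limma-voom also called 0 higher, with 13 and 12 lower. Leaving out 1 library moved the 12 to 1 (WT replicate 1 or KKO replicate 1, both at 48 h), 3 (WT replicate 2 at 48 h), 4 (KKO replicate 3 at 48 h) or 34 (KKO replicate 2 at 48 h). In these fits, in the same order, 5.7%, 4.75%, 5.85%, 5.88% and 21.1% of all tested genes were lower. The count of 1 thus lay below the share of all genes, and the counts of 3 and 4 lay near it. The count was 7 with the replicate block, where 10.5% of all tested genes were lower. With only the 6 libraries compared it was 2 of 48, where 5.13% of all tested genes were lower.

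At 24 h the direction was the other way. Of the 48 genes, 19 were higher in KKO than in WT and 0 were lower, which is 39.6% of the list where 1.89% of all tested genes were called higher and 0.432% lower. The 19 were Ccnb1, Ccnb2, Cdc25b, Plk1, Aurka, Nek2, Birc5, Cenpa, Cenpe, Cdc20, Ube2c, Kif20a, Kif4, Kif2c, Tpx2, Hmmr, Nusap1, Dlgap5 and Prc1. The median log2 fold change was 0.31 over the list and -0.004 over all genes, and the list ran from 0.06 to 0.53. All 48 log2 fold changes lay above 0, where 48.4% of all tested genes did. In 40 genes (83.3%) every KKO library lay above every WT library, where 9.93% of all tested genes did so. Below an unadjusted p of 0.05 there were 42 genes higher and 0 lower, and DESeq2 and limma-voom called 29 and 16 higher and 0 lower. These tools called 2.82% and 1.64% of all tested genes higher. Leaving out 1 library at 24 h moved the 19 to 7, 6 or 11 (WT replicates 1, 2 and 3) and to 7 or 4 (KKO replicates 1 and 3). Leaving out 1 library at 48 h, which enters through the shared spread, moved it to 11 (WT replicate 2) or 30 (KKO replicate 2). In these fits 0.811 to 2.76% of all tested genes were higher at 24 h.

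The effect of Keap1 loss differed between the times in 34 of the 48 genes by the interaction test, with the 48 h effect below the 24 h effect in each. Of all tested genes, 2.72% were called in that direction and 1.46% in the other, and 70.8% of the list was called. The median difference was -0.52 on the log2 scale, against -0.01 over all tested genes, and 47 of the 48 differences lay below 0 (51.7% of all genes). No gene was called in the other direction, at an unadjusted p under 0.05 the count was also 0, and DESeq2 and limma-voom called 41 and 31 genes, each lower. These tools called 4.73% and 2.68% of all tested genes lower in the difference. The largest called differences were in Ube2c (-0.76 ± 0.12, SE), Plk1 (-0.75 ± 0.16), Nusap1 (-0.71 ± 0.12) and Cdc20 (-0.70 ± 0.14). The 14 genes not called were Ccnb2, Cdk1, Cks2, Cdc25b, Cdc25c, Ttk, Bub1, Cenpf, Nuf2, Spc25, Mad2l1, Pttg1, Ect2 and Mki67. Among these, Ttk was the 1 gene with a difference above 0, at 0.12 ± 0.12 (adjusted p = 0.585). The 3 genes called in KKO against WT at both times, lower at 48 h and higher at 24 h, were Birc5, Cenpe and Kif4. The count of 34 fell to 20, 16, 13 and 12 without KKO replicate 1, WT replicate 1, KKO replicate 3 or WT replicate 2 at 48 h, and to 17, 15, 14 and 22 without KKO replicate 1, KKO replicate 3, WT replicate 2 or WT replicate 3 at 24 h. In these fits 0.783 to 1.47% of all tested genes were lower in the difference. Called in each of the 12 fits that left out 1 library were 10 genes: Aurka, Birc5, Kif11, Kif15, Kif4, Ndc80, Nusap1, Prc1, Tpx2 and Ube2c.

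**Figure D2:**
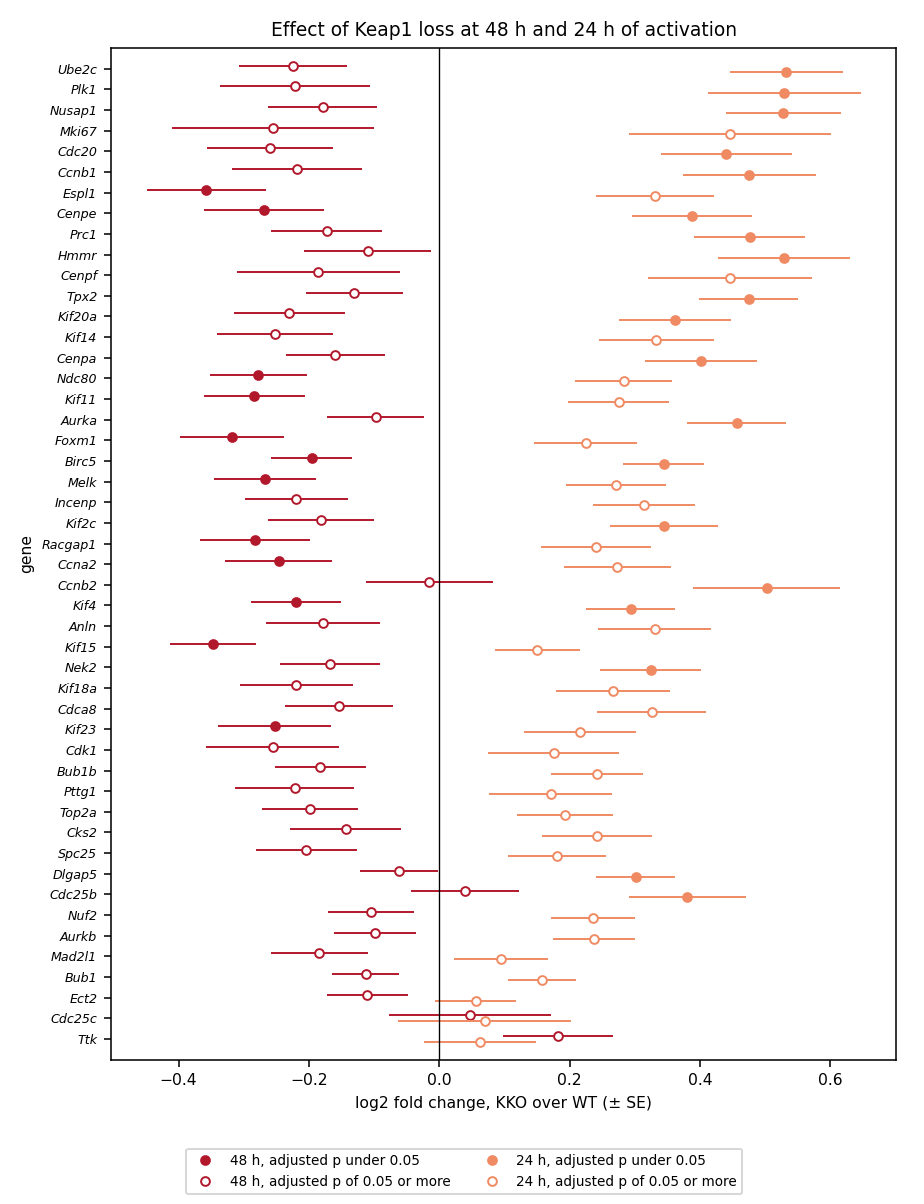
Log2 fold change of KKO over WT (horizontal axis, bars are ± SE of the edgeR fit) for each of the 48 genes at 48 h (dark red) and 24 h (orange), ordered by the difference between the times. Filled points have an adjusted p under 0.05. All 48 values at 24 h lie right of 0 and 45 of the values at 48 h lie left of it.

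Without the 2 KKO libraries in which Xist and Y-linked transcripts were both present, 3 genes were lower at 48 h (Espl1, Kif15 and Foxm1) and 3 were higher at 24 h (Aurka, Ube2c and Tpx2), where 4.84% of all tested genes were lower and 0.657% higher. In that fit 0 genes had a called difference between the times, although 42 had an unadjusted p under 0.05, each lower, and the lowest adjusted p was 0.0595. The medians were -0.17 at 48 h, 0.29 at 24 h and -0.51 for the difference, and all 12, 19 and 34 genes called with the 12 libraries had the same sign without these 2. Within libraries that held Xist only, the median log2 ratio of KKO over WT was -0.09 at 48 h (1 library against 2, below 0 in 39 genes) and 0.24 at 24 h (1 against 2, above 0 in 47 genes). Within libraries that held Y-linked transcripts only it was -0.26 at 48 h (1 against 1, below 0 in 46 genes) and 0.34 at 24 h (1 against 1, above 0 in 47 genes). These ratios have no replicates in KKO and no test.

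KKO replicate 2, which held Xist only at both times, stood nearest to WT. It was the highest KKO library in 42 of the 48 genes at 48 h and the lowest in 41 at 24 h. At 48 h it lay inside the range of the WT libraries in 22 genes, against 3 for KKO replicate 1 and 6 for KKO replicate 3. At 24 h it lay inside that range in 7 genes, against 3 for replicate 1 and 2 for replicate 3. Without KKO replicate 2 at both times, 38 genes were lower at 48 h, 33 were higher at 24 h and 43 differed between the times. In that fit 21.4% of all tested genes were lower at 48 h, 3.20% higher at 24 h and 13.0% lower in the difference. Without it, too, medians of the list kept their sign (-0.28 at 48 h, 0.34 at 24 h and -0.65 for the difference). Markers of cell types also moved with genotype. The 5 T cell genes above had log2 fold changes below 0 at 24 h, each at an unadjusted p under 0.05, and in 3 of them all KKO libraries lay below all WT libraries. At 24 h 0 of 5 were called by edgeR and limma-voom and 2 by DESeq2, and at 48 h 0 were called by the 3 tools, with 0 at an unadjusted p under 0.05. The 10 B cell markers, none at 0 in any group, summed to 53.1 to 79.7 CPM in KKO and 26.1 to 36.4 CPM in WT at 48 h, and to 50.4 to 70.0 CPM in KKO and 25.2 to 31.8 CPM in WT at 24 h. Of the 9 tested, 8 were higher at 48 h and 4 at 24 h, where 12.4% and 1.89% of all tested genes were. Cd8a and Cd8b1 summed to 12.7 to 13.4 CPM in KKO and 8.32 to 10.6 CPM in WT at 48 h, and to 9.36 to 10.8 CPM in KKO and 7.04 to 8.11 CPM in WT at 24 h. Both were called higher at 48 h, where 12.4% of all tested genes were, and neither at 24 h. Natural killer, myeloid and dendritic cell markers summed to at most 2.68, 14.3 and 5.87 CPM in any library, with S100a9 and Clec9a at 0. The part of these cells in the results was not tested.

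Promoters of these genes were read for the CHR (TTTGAA or TTCGAA) and the CCAAT box (CCAAT), on both strands, in windows from 250 bases before to 50 bases after the annotated start (RefSeq, build GRCm38.p6). The table held 42 promoters of 40 of the 48 genes. A CHR sequence was present in 31 of the 42 (73.8%), where 19.2% of all 32851 promoters in the table held one. A CCAAT box was present in 31 of the 42 (73.8%), where 37.4% of all did, and both motifs stood in 27 (64.3%), where 7.53% of all held both. In the promoter of Cdca8 a CHR and a CCAAT box overlapped each other, the 1 such overlap. In 8 promoters (19.0%) a pair of CCAAT boxes began 31 to 33 bases apart, where 0.971% of all promoters had such a pair. These shares describe letters in a window and show no binding. The promoters of Birc5, Kif18a, Mad2l1, Melk, Nuf2, Nusap1 and Pttg1 held neither motif.

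To show these letters beside the values, 8 promoters are printed, chosen after the values were seen. Ube2c, Ccnb2, Hmmr, Cdc20 and Prc1 are 5 of the genes called higher at 24 h. Espl1 had the lowest log2 fold change at 48 h. Prc1 has 2 promoters in the table, of which 1 is shown. Nusap1 was called at 24 h and Mad2l1 in none of the 3 tests of genotype, and the windows of both lack the motifs. For Mad2l1 the window ends before the GENCODE M21 start of the gene (chr6:66535390), so the bases next to that start were not read. Each run is 145 bases, from 120 before to 25 after the annotated start (GRCm38.p6, 5′ to 3′ on the strand of the gene), and capitals mark the CHR and the CCAAT box or their reverse complements. They lie at chr2:164769809-164769953 for Ube2c, chr9:70421530-70421674 for Ccnb2, chr11:40733413-40733557 for Hmmr, chr4:118437319-118437463 for Cdc20, chr7:80294331-80294475 for Prc1, chr15:102296173-102296317 for Espl1, chr2:119618178-119618322 for Nusap1 and chr6:66535101-66535245 for Mad2l1.
Ube2c: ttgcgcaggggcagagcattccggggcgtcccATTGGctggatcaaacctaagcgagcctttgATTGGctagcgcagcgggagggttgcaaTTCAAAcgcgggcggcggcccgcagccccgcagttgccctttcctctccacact
Ccnb2: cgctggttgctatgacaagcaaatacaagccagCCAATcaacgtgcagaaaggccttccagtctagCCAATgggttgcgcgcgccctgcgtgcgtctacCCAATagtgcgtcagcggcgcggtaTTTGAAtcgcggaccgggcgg
Hmmr: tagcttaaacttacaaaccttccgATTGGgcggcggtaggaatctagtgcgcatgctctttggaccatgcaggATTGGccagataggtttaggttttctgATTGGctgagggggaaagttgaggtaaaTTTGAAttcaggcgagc
Cdc20: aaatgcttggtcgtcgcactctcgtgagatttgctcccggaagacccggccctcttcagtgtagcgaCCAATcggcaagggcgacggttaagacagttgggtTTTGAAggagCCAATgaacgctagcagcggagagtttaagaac
Prc1: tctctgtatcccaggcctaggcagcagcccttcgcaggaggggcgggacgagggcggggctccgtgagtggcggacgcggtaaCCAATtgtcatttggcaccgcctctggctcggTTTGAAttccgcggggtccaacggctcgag
Espl1: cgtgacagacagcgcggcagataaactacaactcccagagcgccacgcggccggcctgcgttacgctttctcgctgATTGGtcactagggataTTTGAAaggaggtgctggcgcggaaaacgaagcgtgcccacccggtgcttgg
Nusap1: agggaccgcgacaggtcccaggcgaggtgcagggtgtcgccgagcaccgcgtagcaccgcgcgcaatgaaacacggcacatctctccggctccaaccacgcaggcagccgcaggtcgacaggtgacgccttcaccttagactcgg
Mad2l1: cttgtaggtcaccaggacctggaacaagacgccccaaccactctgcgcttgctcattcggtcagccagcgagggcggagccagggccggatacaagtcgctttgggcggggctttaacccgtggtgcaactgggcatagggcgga

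Written out, the 3 CCAAT boxes of Ccnb2 within the run begin 33 bases apart and its CHR lies just after the annotated start. In Ube2c, 2 boxes on the opposite strand begin 31 bases apart and precede a CHR, also on the opposite strand. In Hmmr, Prc1 and Espl1 the same order of box and CHR is seen, and in Cdc20 a CHR lies between 2 boxes. The runs of Nusap1 and Mad2l1 have no capitals.

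The cyclins and their kinase are the engine of mitotic entry: cyclin B binds CDK1, CDC25 phosphatases activate it, and CKS proteins dock it to its targets. Of these 7 genes, 1 was lower in KKO at 48 h (Ccna2), a share near the 11.9% of all tested genes, 3 were higher at 24 h (Ccnb1, Ccnb2 and Cdc25b) and 2 differed between the times (Ccna2 and Ccnb1). For this and each role group below, 1.89% of all tested genes were higher at 24 h and 2.72% lower in the difference. These role counts rest on all 12 libraries. Without the 2 KKO libraries with both kinds of sex-linked transcript, the whole list had 3 calls at 48 h, 3 at 24 h and 0 in the difference. In that fit 4.84% of all tested genes were lower at 48 h and 0.657% higher at 24 h. Ccnb1, cyclin B1, was at 96.7, 130.0 and 102 CPM in KKO and 135, 123 and 123 CPM in WT at 48 h. At 24 h Ccnb1 was at 67.8, 56.5 and 66.7 CPM in KKO and 43.7, 46.0 and 47.8 CPM in WT. All KKO libraries were above all WT libraries at 24 h, and at 48 h KKO replicate 2 lay within the WT range. The log2 fold change of Ccnb1 was -0.22 ± 0.10 at 48 h (SE, adjusted p = 0.122) and 0.48 ± 0.10 at 24 h (adjusted p = 0.0256), and the difference was -0.69 ± 0.14 (adjusted p = 0.0179).

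Ccna2 encodes cyclin A2, which acts from S phase to mitotic entry. It was at 200.1, 243 and 207 CPM in KKO and 270.0, 254 and 246 CPM in WT at 48 h, with no overlap. At 24 h Ccna2 was at 233, 204 and 235 CPM in KKO and 171, 192 and 194 CPM in WT, again with no overlap and in the other order. Its log2 fold change was -0.25 ± 0.08 at 48 h (adjusted p = 0.0415) and 0.27 ± 0.08 at 24 h (adjusted p = 0.121). Exons of Ccna2 share 12.5% of their length with Exosc9 on the opposite strand, and the strandedness of the counts is not given in the sources used here. Ccnb2, cyclin B2, overlapped between genotypes at 48 h, with 76.6, 77.0 and 79.0 CPM in KKO and 74.8, 79.0 and 81.1 CPM in WT. At 24 h Ccnb2 was at 16.6, 14.7 and 19.1 CPM in KKO and 9.54, 12.3 and 13.6 CPM in WT, with every KKO library above every WT library. Cdk1 itself had log2 fold changes of -0.26 ± 0.10 at 48 h (adjusted p = 0.0818) and 0.18 ± 0.10 at 24 h (adjusted p = 0.612).

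The mitotic kinases act on centrosomes, spindle and checkpoint. Of 7, 1 was lower in KKO at 48 h (Melk), again near the share of all tested genes, 3 were higher at 24 h (Plk1, Aurka and Nek2) and 5 differed between the times (these 4 and Aurkb). Aurka encodes Aurora A, the kinase of centrosomes and spindle poles, and had the smallest p of the 7 at 24 h. Aurka was at 75.1, 84.5 and 75.1 CPM in KKO and 90.3, 80.9 and 79.8 CPM in WT at 48 h. At 24 h it was at 50.6, 44.1 and 53.2 CPM in KKO and 34.7, 35.8 and 37.3 CPM in WT. The groups overlapped at 48 h and not at 24 h, where the log2 fold change was 0.46 ± 0.08 (adjusted p = 0.00437). The call at 24 h held in each fit that left out 1 library. Plk1, the polo-like kinase needed for mitotic entry and spindle assembly, was at 131, 169 and 134 CPM in KKO and 186, 165 and 155 CPM in WT at 48 h, and at 94.0, 76.7 and 98.2 CPM in KKO and 56.7, 61.6 and 67.9 CPM in WT at 24 h. Its log2 fold change at 24 h, 0.53 ± 0.12 (adjusted p = 0.0334), was among the 4 largest of the list.

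Melk, a kinase expressed in dividing cells, was at 47.9, 59.0 and 48.5 CPM in KKO and 63.2, 63.6 and 60.0 CPM in WT at 48 h. At 24 h Melk was at 59.0, 57.9 and 58.0 CPM in KKO and 44.5, 47.8 and 52.6 CPM in WT. Neither pair of groups overlapped, and Melk was called at 48 h (-0.27 ± 0.08, adjusted p = 0.0235) but not at 24 h (0.27 ± 0.08, adjusted p = 0.0935). Ttk, the checkpoint kinase MPS1, stood apart from the list. It was at 38.2, 38.7 and 41.6 CPM in KKO and 34.6, 32.3 and 37.5 CPM in WT at 48 h, the 1 gene of 48 in which all KKO libraries were higher (17.1% of all tested genes). Its log2 fold change at 48 h was 0.18 ± 0.08 and missed the threshold (adjusted p = 0.125).

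The chromosomal passenger complex corrects faulty attachments of chromosomes to the spindle and later acts in cytokinesis. Its subunits here are survivin (Birc5), INCENP and borealin (Cdca8), which place the kinase Aurora B. All 3 differed between the times. Birc5 was at 83.2, 99.2 and 92.1 CPM in KKO and 108, 99.9 and 106 CPM in WT at 48 h. At 24 h Birc5 was at 82.6, 78.7 and 82.9 CPM in KKO and 62.0, 64.6 and 65.7 CPM in WT. No KKO library overlapped a WT library at either time. Birc5 fell in KKO at 48 h (-0.20 ± 0.06, adjusted p = 0.0348) and rose at 24 h (0.34 ± 0.06, adjusted p = 0.00789), with a difference of -0.54 ± 0.09 (adjusted p = 0.00545). Incenp and Cdca8 were called at neither time, with log2 fold changes of -0.22 and -0.15 at 48 h and 0.31 and 0.33 at 24 h.

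Kinetochore genes build the plate on each centromere that holds microtubules. Of 6, 2 were lower in KKO at 48 h (Cenpe and Ndc80), 2 were higher at 24 h (Cenpa and Cenpe) and 3 differed between the times (Cenpa, Cenpe and Ndc80). Of all tested genes, 11.9% were lower at 48 h. Cenpa encodes the histone H3 variant that marks centromeres. Cenpa was at 80.7, 87.9 and 78.5 CPM in KKO and 91.8, 92.3 and 91.9 CPM in WT at 48 h, and at 21.0, 18.6 and 23.0 CPM in KKO and 13.9, 16.7 and 16.8 CPM in WT at 24 h. The groups overlapped at neither time, although the log2 fold change passed the threshold at 24 h (0.40 ± 0.09, adjusted p = 0.0214) and not at 48 h (-0.16 ± 0.08, adjusted p = 0.136). Ndc80, the microtubule-binding subunit of the complex named after it, was at 44.1, 52.5 and 46.8 CPM in KKO and 58.8, 57.3 and 57.6 CPM in WT at 48 h. At 24 h Ndc80 was at 44.6, 38.1 and 44.3 CPM in KKO and 33.0, 35.3 and 36.2 CPM in WT. KKO was below WT in every library at 48 h (-0.28 ± 0.07, adjusted p = 0.0156) and above it in every library at 24 h (0.28 ± 0.07, adjusted p = 0.0649). Its partners Nuf2 and Spc25 had log2 fold changes of -0.11 and -0.20 at 48 h and 0.24 and 0.18 at 24 h, none called.

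Anaphase starts when the checkpoint, run by MAD2 (Mad2l1) and BUBR1 (Bub1b), releases CDC20, the APC/C activator. The APC/C with its ubiquitin-conjugating enzyme UBE2C then destroys securin (Pttg1) and frees separase (Espl1), which cuts cohesin. Of these 6 genes, 1 was lower in KKO at 48 h (Espl1), which is near the 11.9% of all tested genes, 2 were higher at 24 h (Cdc20 and Ube2c) and 4 differed between the times (Bub1b, Cdc20, Ube2c and Espl1). Ube2c was at 142, 165 and 141 CPM in KKO and 183, 173 and 167 CPM in WT at 48 h. At 24 h Ube2c was at 63.6, 55.3 and 68.2 CPM in KKO and 38.9, 44.5 and 45.9 CPM in WT. The groups overlapped at neither time. The log2 fold change was -0.22 ± 0.08 at 48 h (adjusted p = 0.0631) and 0.53 ± 0.09 at 24 h (adjusted p = 0.00385), and the difference, -0.76 ± 0.12 (adjusted p = 0.00486), was the largest of the list in size. Exons of Ube2c share 22.8% of their length with Tnnc2 on the opposite strand.

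Espl1 moved most at 48 h. It was at 69.4, 88.8 and 82.8 CPM in KKO and 115, 103 and 90.6 CPM in WT, a log2 fold change of -0.36 ± 0.09 (adjusted p = 0.0131). At 24 h Espl1 was at 94.8, 103 and 101 CPM in KKO and 82.7, 76.4 and 78.3 CPM in WT, or 0.33 ± 0.09 (adjusted p = 0.0804). No libraries overlapped between genotypes at either time. Mad2l1, called in no test of genotype, was at 69.6, 85.3 and 73.6 CPM in KKO and 87.0, 86.7 and 85.7 CPM in WT at 48 h, and at 88.6, 81.3 and 86.4 CPM in KKO and 73.2, 82.0 and 84.8 CPM in WT at 24 h. KKO was below WT in every library at 48 h (-0.18 ± 0.07, adjusted p = 0.0822), and the groups overlapped at 24 h.

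**Figure D3:**
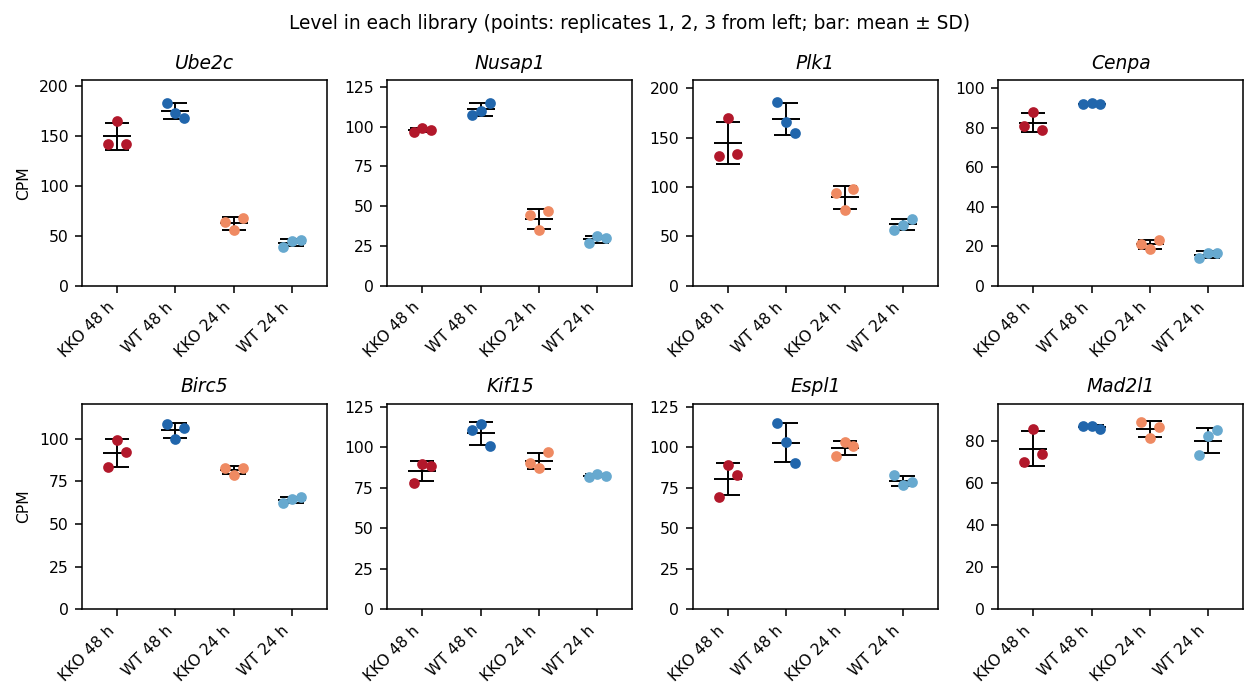
Level in CPM (vertical axis, from 0) of 8 of the genes in KKO and WT at 48 h and at 24 h. Points are libraries and bars the mean ± SD (n = 3). For Ube2c, Birc5, Kif15 and Espl1 the KKO points lie below all WT points at 48 h and above all of them at 24 h, while for Mad2l1 the groups overlap at 24 h.

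Kinesins are motors that slide, crosslink or shorten spindle microtubules. Of 8, 4 were lower in KKO at 48 h (Kif11, Kif23, Kif4 and Kif15), 3 were higher at 24 h (Kif20a, Kif4 and Kif2c), and all 8 differed between the times. Of all tested genes, 11.9% were lower at 48 h, 1.89% higher at 24 h and 2.72% lower in the difference. Without the 2 KKO libraries with both kinds of transcript, Kif15 alone of the kinesins was called at 48 h. None was then called at 24 h or in the difference. Kif15, a motor that backs up Kif11 (Eg5) in keeping the spindle bipolar, was at 78.2, 89.6 and 88.8 CPM in KKO and 111, 115 and 101 CPM in WT at 48 h. At 24 h Kif15 was at 90.3, 87.5 and 97.2 CPM in KKO and 81.6, 83.7 and 82.4 CPM in WT. Its log2 fold change of -0.35 ± 0.07 at 48 h had the smallest adjusted p of the list in that comparison (0.00217), and Kif15 was the 1 gene of 48 called at 48 h in each of the 12 fits that left out 1 library. At 24 h it was 0.15 ± 0.06 (adjusted p = 0.369), with every KKO library above every WT library. Kif4, a chromokinesin, was at 61.1, 66.4 and 61.3 CPM in KKO and 79.1, 72.1 and 68.4 CPM in WT at 48 h, and at 56.9, 54.2 and 63.9 CPM in KKO and 47.7, 46.7 and 48.4 CPM in WT at 24 h. It was called at both times, at -0.22 ± 0.07 (adjusted p = 0.0328) and 0.29 ± 0.07 (adjusted p = 0.0366). Exons of Kif20a share 29.3% of their length with Cdc23 on the opposite strand, and those of Kif4 share 15.1% with Pdzd11.

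Spindle assembly factors gather microtubules around chromosomes. All 4 of them rose in KKO at 24 h, where 1.89% of all tested genes did, and all 4 differed between the times. Without the 2 KKO libraries with both kinds of transcript, Tpx2 alone of them was called at 24 h and none in the difference. At 48 h 0 were called, 1 had an unadjusted p under 0.05, and DESeq2 and limma-voom also called 0. Tpx2, the activator of Aurora A on spindle microtubules, was at 180.0, 204 and 195 CPM in KKO and 219.5, 203 and 211 CPM in WT at 48 h. At 24 h Tpx2 was at 124, 109.6 and 133 CPM in KKO and 80.9, 90.3 and 92.1 CPM in WT. The groups overlapped at 48 h and not at 24 h, and the log2 fold change at 24 h was 0.47 ± 0.08 (adjusted p = 0.00331), the smallest adjusted p of the list in that comparison. Nusap1, a microtubule-bundling protein of the nucleolus and spindle, was at 96.6, 99.2 and 97.9 CPM in KKO and 107, 110.0 and 115 CPM in WT at 48 h, and at 44.4, 35.2 and 46.9 CPM in KKO and 26.8, 31.0 and 29.9 CPM in WT at 24 h. It did not overlap between genotypes at either time, with log2 fold changes of -0.18 ± 0.08 (adjusted p = 0.13) and 0.53 ± 0.09 (adjusted p = 0.00462). Counts of Nusap1 were not whole in all 12 libraries and those of Hmmr in 11, and RSEM splits a read that matches several genes between them. The same held in all 12 libraries for Ccna2, Cenpf, Kif20a and Kif18a, in 9 for Birc5, and in fewer for some other genes of the list.

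Cytokinesis genes build the midzone and the contractile ring. Of 4, 1 was lower in KKO at 48 h (Racgap1), where 11.9% of all tested genes were. At 24 h 1 was higher (Prc1), and 3 differed between the times (Prc1, Anln and Racgap1). Prc1, which crosslinks midzone microtubules, was at 62.3, 80.0 and 67.7 CPM in KKO and 85.2, 74.0 and 77.4 CPM in WT at 48 h. At 24 h Prc1 was at 57.4, 51.7 and 60.2 CPM in KKO and 40.0, 40.1 and 41.6 CPM in WT, with no overlap and a log2 fold change of 0.48 ± 0.09 (adjusted p = 0.00781). Racgap1, which forms centralspindlin with Kif23, was at 107, 132 and 107 CPM in KKO and 148, 141 and 132 CPM in WT at 48 h, and at 100.0, 85.3 and 95.3 CPM in KKO and 74.4, 80.2 and 82.9 CPM in WT at 24 h. KKO replicate 2 touched the WT range at 48 h, where Racgap1 was called at -0.28 ± 0.08 (adjusted p = 0.0265). Ect2, the exchange factor that activates RhoA at the cleavage site, was not called in any test of genotype, with log2 fold changes of -0.11 ± 0.06 at 48 h and 0.06 ± 0.06 at 24 h.

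The last 3 genes act on chromosomes or their transcription. Foxm1, the transcription factor that switches on many of the genes above, was at 64.0, 78.1 and 73.9 CPM in KKO and 97.7, 93.1 and 78.6 CPM in WT at 48 h. At 24 h Foxm1 was at 73.3, 73.3 and 77.0 CPM in KKO and 63.3, 63.0 and 65.0 CPM in WT. No libraries overlapped at either time. Foxm1 fell in KKO at 48 h (-0.32 ± 0.08, adjusted p = 0.0116), was not called at 24 h (0.22 ± 0.08, adjusted p = 0.223) and differed between the times (-0.54 ± 0.11, adjusted p = 0.0175). Top2a, called in the difference alone (-0.39 ± 0.10, adjusted p = 0.048), was at 579, 673 and 653 CPM in KKO and 786, 709 and 692 CPM in WT at 48 h. Mki67, which encodes the Ki-67 antigen, varied more between replicates. It was at 473, 607 and 634 CPM in KKO and 789.6, 676 and 580.2 CPM in WT at 48 h, and at 515, 639.5 and 694 CPM in KKO and 524, 392 and 441 CPM in WT at 24 h. The groups overlapped at both times and no test of genotype called Mki67.

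Between the times, nearly the whole list rose in WT and part of it rose in KKO. In KKO, 27 genes were higher at 48 h than at 24 h and 3 were lower (Incenp, Nuf2 and Espl1), where 34.4% of all tested genes were called higher and 33.4% lower. In WT, 47 genes were higher and 0 were lower, where 31.0% of all tested genes were called higher and 29.7% lower. Mad2l1 was the 1 gene of the 48 not called in WT (0.11 ± 0.07, adjusted p = 0.2), and 0 genes were lower at an unadjusted p under 0.05. DESeq2 and limma-voom also called 47 higher and 0 lower, where they called 30.9% and 31.3% of all tested genes higher. In WT all 48 genes had every 48 h library above every 24 h library (34.4% of all tested genes), and in KKO 27 did (35.7%). The median log2 fold change was 0.29 in KKO and 0.71 in WT, where the medians of all tested genes were 0.002 and -0.001. Without the 2 KKO libraries with both kinds of transcript, 24 genes were higher and 1 was lower in KKO, with a median of 0.28. In that fit 30.3% of all tested genes were higher and 28.9% lower in KKO. Library totals were lower at 48 h than at 24 h in every library of either genotype, and the part of depth in this change was not tested.

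The order of the genes was led by Ccnb2, with log2 fold changes of 2.21 ± 0.11 in KKO and 2.73 ± 0.11 in WT. Cenpa followed with 1.98 ± 0.08 in KKO and 2.54 ± 0.08 in WT. Ube2c rose by 1.26 ± 0.09 in KKO and 2.01 ± 0.09 in WT, Nusap1 by 1.22 ± 0.09 and 1.92 ± 0.09, and Cdc25b by 1.52 ± 0.09 and 1.87 ± 0.09. At the other end, the KKO values of Ccna2 (-0.05), Cdk1 (-0.04), Kif11 (0.03) and Foxm1 (-0.05) were close to 0 and not called, while the same genes rose in WT by 0.47, 0.39, 0.59 and 0.49. Espl1 fell by 0.31 ± 0.09 in KKO (adjusted p = 0.00756) and rose by 0.38 ± 0.09 in WT (adjusted p = 0.00228). The interaction test that compares the 2 genotypes here is the same as the test of the difference between the times given above.

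**Figure D4:**
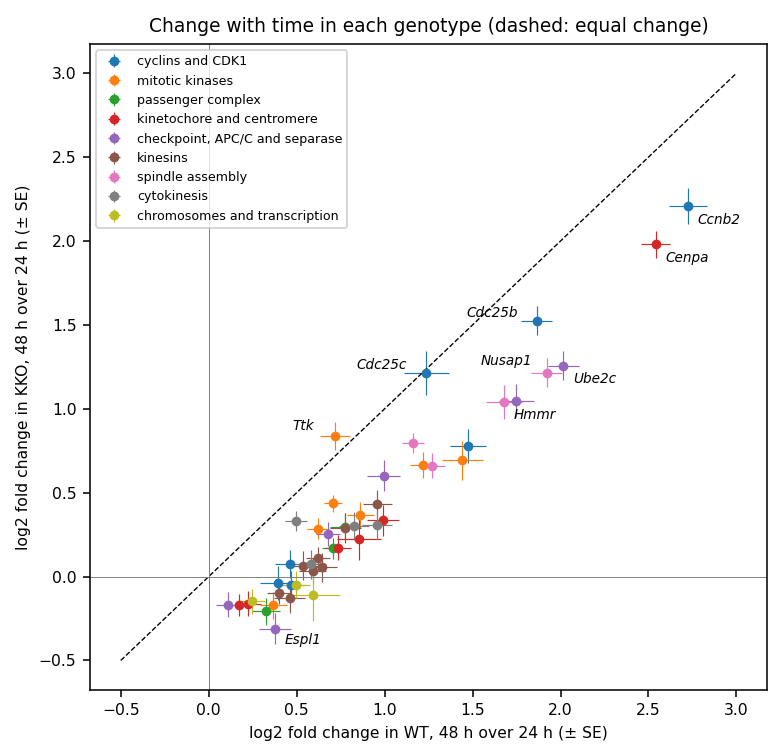
Log2 fold change of 48 h over 24 h in KKO (vertical axis) against WT (horizontal axis) for the 48 genes, coloured by role, with bars of ± SE. On the dashed line the change is equal in both genotypes. All points except Ttk lie below the line, and Ccnb2 and Cenpa lie farthest out. The libraries are those of the comparisons between genotypes, so the points are not independent of them.

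Levels between genes were compared as CPM per kb of merged exon (GENCODE M21, GRCm38). Merged exons take in every annotated transcript of a gene, so these places depend on the annotation. Which transcripts were expressed was not tested. Cks2, a small docking subunit of CDK1, was highest in all 4 groups, at 114 CPM per kb in KKO and 126 in WT at 48 h, and at 109 CPM per kb in KKO and 91.8 in WT at 24 h. Top2a was the second in 3 groups and the third in WT at 48 h, where Cdc20 was the second, at 83.6 CPM per kb. Ccnb2 stood at place 8 of 48 in both genotypes at 48 h, against place 24 in KKO and place 29 in WT at 24 h. Kif18a was lowest at 48 h, with 2.23 CPM per kb in KKO and 2.60 in WT, and Cdc25c was lowest at 24 h, with 1.19 CPM per kb in KKO and 1.13 in WT.

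Other genes of the same machinery were read from 6 further lists. Of 57 further G2/M and mitosis genes in the file, 24 were lower in KKO at 48 h and 0 higher, 5 were higher at 24 h and 0 lower, and 18 differed between the times, each lower. Of all tested genes, 11.9% were lower at 48 h, 1.89% higher at 24 h and 2.72% lower in the difference. Their medians were -0.22 at 48 h, 0.18 at 24 h and -0.38 for the difference. For the counts of 0, an unadjusted p under 0.05 gave 0 genes as well, and DESeq2 and limma-voom called 0. Without the 2 KKO libraries with both kinds of transcript, 5 of the 57 were lower at 48 h, 1 was higher at 24 h and 0 were called in the difference, where 41 had an unadjusted p under 0.05. In that fit 4.84% of all tested genes were lower at 48 h and 0.657% higher at 24 h. Troap, a protein of the spindle poles, fell at 48 h (-0.40 ± 0.09, adjusted p = 0.00496), and Fam64a had the largest rise of the list at 24 h (0.80 ± 0.18, adjusted p = 0.0289). Without the 2 libraries Troap was at -0.41 at 48 h (adjusted p = 0.0292) and Fam64a at 0.63 at 24 h (adjusted p = 0.203).

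Genes of DNA replication, which run earlier in the cycle, were lower in KKO at 48 h and not called at 24 h. Of 43 genes, 25 were lower at 48 h (median -0.23), where 11.9% of all tested genes were, among them the polymerase gene Pole (-0.45 ± 0.10) and the loading factor gene Mcm10 (-0.44 ± 0.10). At 24 h 0 were called by edgeR, DESeq2 or limma-voom, 0 had an unadjusted p under 0.05 and the median was -0.01. The difference between the times was called by edgeR in 1 of the 43, Chaf1b (-0.45 ± 0.11, adjusted p = 0.0303). DESeq2 called 7, where it called 4.73% of all tested genes lower and 3.83% higher. The edgeR count of 1 is near the 2.72% of all tested genes that edgeR called lower in the difference. Without the 2 KKO libraries with both kinds of transcript, 4 were lower at 48 h (median -0.19), with 21 at an unadjusted p under 0.05. In that fit 4.84% of all tested genes were lower. Chaf1b was then at -0.39 in the difference (adjusted p = 0.18), and Mcm10 at -0.39 at 48 h (adjusted p = 0.062). Their summed level was 5647 to 6864 CPM in KKO and 6789 to 7609 CPM in WT at 48 h, and 10134 to 10905 CPM in KKO and 10327 to 10774 CPM in WT at 24 h. Replication genes were thus lower at 48 h than at 24 h in both genotypes, with 42 of 43 called lower in KKO and 41 in WT. Of the 48 mitotic genes, 3 were called lower in KKO and 0 in WT, and of the 57 further genes 16 were called lower in KKO and 6 in WT. Of all tested genes, 33.4% were called lower over time in KKO and 29.7% in WT, and both counts of the 57 lie below these shares. Another 22 of the 57 were called higher in KKO and 40 in WT, where 34.4% and 31.0% of all tested genes were.

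**Figure D5:**
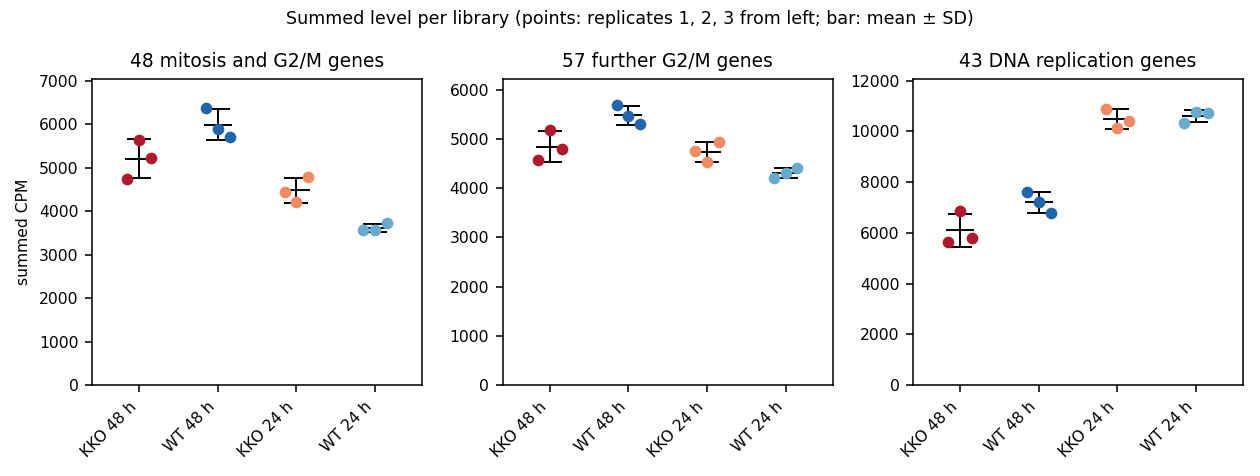
Summed CPM (vertical axis, from 0) of the 48 genes, of 57 further G2/M and mitosis genes and of 43 DNA replication genes in each library, in KKO and WT at 48 h and at 24 h. Points are libraries and bars the mean ± SD (n = 3). The 48 genes sum to 4749 to 5642 CPM in KKO and 5693 to 6374 CPM in WT at 48 h, and the replication genes overlap between genotypes at both times.

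Upstream regulators of the program were read from a list of 23 (E2F, DREAM, NF-Y and related genes). Of these, 7 were lower and 2 higher in KKO at 48 h, where 11.9% of all tested genes were lower and 12.4% higher, and 0 were called at 24 h by edgeR, DESeq2 or limma-voom, with 3 at an unadjusted p under 0.05. Rbl2, which encodes the DREAM pocket protein p130, was at 57.9, 48.5 and 60.2 CPM in KKO and 39.7, 39.4 and 44.5 CPM in WT at 48 h. No libraries overlapped, and Rbl2 rose by 0.43 ± 0.08 (adjusted p = 0.00177). E2f8, an atypical E2F repressor, fell (-0.41 ± 0.10, adjusted p = 0.00814). Without the 2 KKO libraries with both kinds of transcript, 2 of the 23 were lower and 1 was higher at 48 h. In that fit 4.84% of all tested genes were lower and 5.51% higher, so the 1 higher gene does not exceed that share. Rbl2 was then at 0.37 (adjusted p = 0.0198) and E2f8 at -0.39 (adjusted p = 0.0612). Of 14 tested G1 cyclins, kinases and inhibitors, 4 rose and 2 fell at 48 h, and 0 were called at 24 h by the 3 tools, with 3 at an unadjusted p under 0.05. Of all tested genes, 12.4% rose and 11.9% fell at 48 h, so the 2 that fell are near that share. Cdkn1a, the gene of the CDK inhibitor p21, was at 541, 335 and 424 CPM in KKO and 186, 200.5 and 302 CPM in WT at 48 h (0.92 ± 0.21, adjusted p = 0.0114). KKO replicate 2, the KKO library with the highest mitotic genes, was the lowest of the 3 in Cdkn1a, and all 3 lay above WT. Without the 2 libraries with both kinds of transcript, Cdkn1a was at 0.94 (adjusted p = 0.0544). Of the 14 genes, 3 were then higher and 0 lower, where 5.51% of all tested genes were higher and 4.84% lower. An unadjusted p under 0.05 was reached by 8 of the 14. Of 15 APC/C subunits and activators, 1 fell at 48 h (Cdc23, -0.22 ± 0.07, adjusted p = 0.0263), and of 12 cohesin genes 3 fell. The share of APC/C genes lies below the 11.9% of all tested genes. Without the 2 libraries 0 of either list were called at 48 h, with 2 each at an unadjusted p under 0.05, and Cdc23 was at -0.22 (adjusted p = 0.104). Neither list had a call at 24 h by the 3 tools, with 1 gene each at an unadjusted p under 0.05.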

How the data were processed

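RNA from 12 libraries was counted per gene. The authors deposited RSEM expected counts per gene, not normalised, made from reads checked with FastQC and counted against mouse build mm10, per the submitters' processing notes. A human reference is named in the design text, against the mouse labels. For the versions, the aligner and the annotation, the sources used here give nothing. Of the 32699 symbols, 27 had been turned into dates and 1 row was named unknown (4.2e-06% of counts). Another 6 columns were not used, since no sample label describes them.

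The expected counts were rounded to whole numbers. R 4.3.3 and edgeR 4.0.16 were used for filterByExpr on the 4 groups, TMM scaling and robust quasi-likelihood F tests (2-sided). The 12 libraries entered 1 model with a mean for each group, which left 8 residual degrees of freedom. KKO was set against WT at 48 h and at 24 h, these effects were compared (interaction), and 48 h was set against 24 h in each genotype. Calls needed an adjusted p (Benjamini-Hochberg, 13196 genes) under 0.05. CPM used TMM-scaled totals. The fit was tested on simulated data. Replicates of a group differed by more than counting noise (chi-square over degrees of freedom 5.83 to 23.6), so none was counted as a duplicate. Across time, deviations of same-numbered WT libraries had correlations of 0.126, 0.103 and 0.343. The blocked count in WT was also 47, each higher, where 30.5% of all tested genes were. What the numbers mark is not stated, and in KKO the correlations were 0.0287, 0.0852 and 0.0408, and replicates 1 and 3 carried different sex-linked transcripts at the 2 times.

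The members, gene lists and role groups were chosen with earlier results of these data known. Values per library are given for the members with the smallest p in each role group at 48 h, at 24 h and for the difference. Ccnb2, Plk1, Ttk, Mad2l1, Top2a and Mki67 were added after their values were seen. From the further lists, the named genes were picked among up to 4 called genes with the largest change per list and comparison. Not all of these are named. At 48 h Ncapg2 (-0.46) and Wee1 (-0.42) had larger called changes than Troap, and E2f5 (-0.46) a larger one than Rbl2 and E2f8. Alternatives were DESeq2 1.42.0, limma-voom (limma 3.58.1), upper-quartile or RLE scaling, no low-count filter or 1 CPM in 6 libraries, only the compared libraries, replicate numbers as a block, an adjusted p under 0.01, and leaving out each library. Chosen after seeing the data were fits without the 2 KKO libraries with both kinds of sex-linked transcript and without KKO replicate 2 at both times.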

Additional observations from a re-analysis of the deposited data

Results flagged for a closer look

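The effect of Keap1 loss differed between 48 h and 24 h, by the interaction test, in 34 of the 48 genes. The 48 h effect minus the 24 h effect is given on the log2 scale. Among the cyclins these were Ccna2 (-0.52) and Ccnb1 (-0.69). Among the kinases these were Plk1 (-0.75), Aurka (-0.55), Aurkb (-0.34), Nek2 (-0.49) and Melk (-0.54). Among the passenger complex these were Birc5 (-0.54), Incenp (-0.53) and Cdca8 (-0.48). Among the kinetochore these were Cenpa (-0.56), Cenpe (-0.66) and Ndc80 (-0.56). Among the checkpoint, APC/C and separase genes these were Bub1b (-0.42), Cdc20 (-0.70), Ube2c (-0.76) and Espl1 (-0.69). Among the kinesins these were Kif11 (-0.56), Kif23 (-0.47), Kif20a (-0.59), Kif4 (-0.51), Kif2c (-0.53), Kif18a (-0.49), Kif15 (-0.50) and Kif14 (-0.59). Among the spindle assembly factors these were Tpx2 (-0.60), Hmmr (-0.64), Nusap1 (-0.71) and Dlgap5 (-0.36). Among the cytokinesis genes these were Prc1 (-0.65), Anln (-0.51) and Racgap1 (-0.52). Among the chromosome and transcription genes these were Top2a (-0.39) and Foxm1 (-0.54). The count was 0 without the 2 KKO libraries in which Xist and Y-linked transcripts were both present, where 42 genes had an unadjusted p under 0.05.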

How the results depend on the processing

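Of the 48 genes, 12 were called at 48 h, 19 at 24 h and 34 in the difference, and other settings moved these counts as follows, where the cause was not tested unless fewer libraries or a stricter threshold made it. At 48 h the count was 2 with only the libraries compared (5.13% of all genes were lower), 7 with the replicate block (10.5%), 1 at an adjusted p under 0.01 (4.78%), and 1 to 34 on leaving out 1 library. At 24 h it was 29 with DESeq2 (2.82% higher), 33 with only the libraries compared (2.97%), 6 at an adjusted p under 0.01 (0.818%), and 4 to 30 on leaving out 1 library. In the difference it was 4 at an adjusted p under 0.01 (0.515% lower) and 12 to 42 on leaving out 1 library. Without the 2 KKO libraries with both kinds of sex-linked transcript the counts were 3, 3 and 0, and without KKO replicate 2 at both times 38, 33 and 43. The count between times was 27 to 35 in KKO and 45 to 47 in WT, each higher, on leaving out 1 library. In these fits 61.4 to 68.4% of all tested genes were called in KKO in either direction, and 28 to 32.5% higher in WT. With the replicate block the count was 13 at 24 h (2.02% of all genes were higher) and 31 in the difference (2.93% lower). Over time it was 30 in KKO, with 27 higher (34% of all genes) and 3 lower (32.5%), and 47 in WT, each higher (30.5%). Between the genotypes the numbers gave correlations of -0.249, 0.106 and 0.135 at 48 h and -0.317, -0.003 and 0.224 at 24 h. Whether libraries with the same number share an origin was not tested. In KKO, replicates 1 and 3 carried other kinds of sex-linked transcript at 48 h than at 24 h, so the block joined unlike libraries.

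A total of 34 values changed sign under an alternative, 0 of them called before, and all lay between -0.0995 and 0.0648 (log2). With upper-quartile scaling Ccnb2 was at 0.00735 at 48 h, and with no low-count filter Kif11 was at -0.0100 over time in KKO. Without the 2 libraries with both kinds of transcript, Ttk was at -0.00306 at 24 h, Cdc25c at 0.0245 in the difference, and Ccna2 at 0.0124 and Cdk1 at 0.0648 over time in KKO. Without KKO replicate 2, Cdc25c was at -0.0681 at 48 h, and Cks2 (-0.0562), Kif11 (-0.0910), Kif23 (-0.0789), Kif20a (-0.0995) and Anln (-0.0603) were below 0 over time in KKO. On leaving out 1 library the ranges that crossed 0 were, at 48 h, Ccnb2 -0.0507 to 0.00385, Cdc25b -0.00897 to 0.0739 and Cdc25c -0.0688 to 0.111. At 24 h they were Cdc25c -0.00192 to 0.200 and Ttk -0.00355 to 0.102, and in the difference Cdc25c -0.156 to 0.0485. Over time in KKO they were Ccna2 -0.153 to 0.00869, Cdk1 -0.202 to 0.0508, Kif11 -0.0552 to 0.125, Kif23 -0.0560 to 0.139, Kif20a -0.0590 to 0.120, Anln -0.0330 to 0.122, Mki67 -0.236 to 0.0159 and Foxm1 -0.123 to 0.0346.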
